A study of Mus musculus with 15 samples.

Results

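The collagen genes of the mouse, the genes whose symbol is Col followed by a type number, the letter a and a chain number, were followed through mammary tumours of MMTV-PyMT mice before and after antiangiogenic treatment. Members of the family were taken by symbol alone, after the transcript identifier of each non-control probe had been matched to mouse genes. The family itself was chosen with earlier results of these data known. The reference table holds 44 such genes, 42 of them had a probe on the array, and 36 were tested, of 28074 genes or unnamed transcripts tested in all. The remaining 6 (Col4a3, Col6a4, Col6a6, Col13a1, Col19a1 and Col28a1) were well above background on at most 2 of the 15 arrays and were not tested. Col12a1 and Col6a3 were not analysed here. By type, 11 of 11 fibrillar, 7 of 8 basement membrane and 18 of 23 other collagen genes were tested.

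In MMTV-PyMT mice a viral oncogene, polyoma middle T, is driven by a mammary promoter, and all the mice here were female carriers of it. RNA came from whole dissected mammary tumours, so every cell type in the tumour contributes to a value, and a smaller number of cells of a type cannot be told apart from less RNA per cell. Nint_END tumours (n = 4) were taken after nintedanib, a kinase inhibitor that blocks receptors for VEGF, FGF and PDGF, dosed orally at 85 mg per kg daily. B20_END tumours (n = 4) were taken after B20-4.1.1, an antibody that binds VEGF, injected into the peritoneum 2 times a week at 5 mg per kg. Veh_END tumours (n = 3) received vehicle. T0 tumours (n = 4) were taken before any treatment, and treatment of the other groups began at 7 weeks of age. Nothing in the labels tells whether tumours of 1 group were from different mice, so the p-values reflect only how these samples varied, possibly for technical reasons. T0 replicate 4 is marked both as untreated and as vehicle, and stays with T0 here because of its title.

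Collagens are triple helices of 3 chains, which in some types are all the product of 1 gene and in others, such as types I, IV, V, VI, IX and XI, come from different genes. Fibrillar collagens build the tensile fibres that fibroblasts lay down in the stroma of mammary tumours, and fibril-associated types sit on their surface. Basement membrane collagens form the sheet under epithelium and around the endothelium of blood vessels, type IV as a network and types XV and XVIII as proteoglycans at its border. Transmembrane collagens such as type XVII anchor epithelial cells to that sheet.

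The promoters of 4 genes named in the results are shown. Col4a1 and Col4a2 had levels that moved together from array to array. Col11a1 and Col25a1 were higher than in T0 tumours in all 3 later groups. Each window holds the 250 bases before and the 50 bases after the RefSeq start of the gene on GRCm38.p6, written 5′ to 3′ on the gene's own strand. Col4a1 lies on the minus strand at chr8:11312777-11313076 and Col4a2 on the plus strand at chr8:11312555-11312854. They lie on opposite strands with RefSeq starts 21 bases apart, the Col4a1 start at 11312826 and the Col4a2 start at 11312805, so that the first bases of the 2 transcripts overlap. The capitals mark the 78 bases that both windows share.
Col4a1: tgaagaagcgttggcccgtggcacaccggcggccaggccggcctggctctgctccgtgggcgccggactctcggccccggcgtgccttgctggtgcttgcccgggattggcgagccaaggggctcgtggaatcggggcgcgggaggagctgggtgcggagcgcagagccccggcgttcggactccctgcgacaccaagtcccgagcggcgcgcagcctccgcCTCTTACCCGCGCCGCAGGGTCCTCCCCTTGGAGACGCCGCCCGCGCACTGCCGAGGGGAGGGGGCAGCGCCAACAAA
Col4a2: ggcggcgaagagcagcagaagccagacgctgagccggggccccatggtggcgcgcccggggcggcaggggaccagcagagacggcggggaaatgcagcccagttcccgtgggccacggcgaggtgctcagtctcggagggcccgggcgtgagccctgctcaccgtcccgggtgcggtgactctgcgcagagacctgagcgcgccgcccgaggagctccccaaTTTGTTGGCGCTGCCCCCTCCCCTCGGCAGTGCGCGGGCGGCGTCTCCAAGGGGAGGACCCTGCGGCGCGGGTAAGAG
Col11a1 lies on the plus strand at chr3:114030290-114030589 and Col25a1 on the plus strand at chr3:130180595-130180894, and the capitals mark the letters CCAAT on either strand (ATTGG on the strand shown).
Col11a1: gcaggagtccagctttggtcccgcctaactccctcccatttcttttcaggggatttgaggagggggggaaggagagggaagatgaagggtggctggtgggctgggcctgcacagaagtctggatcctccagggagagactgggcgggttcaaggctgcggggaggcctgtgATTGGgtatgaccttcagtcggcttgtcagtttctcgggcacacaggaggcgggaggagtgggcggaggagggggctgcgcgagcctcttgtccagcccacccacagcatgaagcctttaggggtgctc
Col25a1: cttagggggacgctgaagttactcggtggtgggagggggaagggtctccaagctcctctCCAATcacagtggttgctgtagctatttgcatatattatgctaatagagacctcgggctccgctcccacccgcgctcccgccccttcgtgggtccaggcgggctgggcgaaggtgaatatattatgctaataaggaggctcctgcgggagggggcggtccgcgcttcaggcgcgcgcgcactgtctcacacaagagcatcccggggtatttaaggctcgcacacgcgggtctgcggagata
Each of the 4 windows holds CCAAT on 1 strand 1 time, none holds TATAAA on either strand, and GGGCGG, the GC box, is found on either strand 1 time in Col4a1, 3 times in Col4a2 and 2 times each in Col11a1 and Col25a1. Over all 32851 mouse windows of this length, 37.4% hold CCAAT, 13.6% TATAAA and 35.7% GGGCGG. Windows were found for 34 of the 42 collagen genes, 37 windows in all, of which 35.1% hold CCAAT, 13.5% TATAAA and 62.2% GGGCGG. These matches describe letters in a window and nothing about which factors bind there.

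A level here means log2 of a gene's signal minus log2 of the 75th percentile on the same array. A level of 0 is therefore the signal of a probe at that percentile, and levels of different genes are not set against each other because probes differ in brightness. A difference is the mean level of the first group minus that of the second, with the standard error of 1 limma fit to all 15 arrays. Genes with an adjusted p below 0.05 are termed called (Benjamini-Hochberg over the 28074). Between 53.5% and 68.1% of probes were well above background on 14 arrays, against 84.2% on T0 replicate 3. The T0 arrays were on slides of their own, scanned on other days and read with another version of the Feature Extraction protocol, so in every comparison with T0 the slide, the scan and the later stage of the tumours cannot be told apart. Epithelial RNA was present on every array. The epithelial keratins Krt8 and Krt18 and the epithelial adhesion gene Epcam were well above background on all 15 arrays, which does not tell tumour from normal gland. Krt18 levels were 8.41 on average in Nint_END, 8.50 in B20_END, 8.40 in Veh_END and 8.59 in T0 tumours. Krt18 does not stand for its list: over 12 luminal markers the mean level was 3.51, 3.63, 3.41 and 4.49 in the same order.

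Compared with T0 tumours, all 3 later groups carried more Col11a1 and Col25a1 mRNA. Type IX and type VIII genes were called higher in some groups. Col3a1, Col15a1 and Col17a1 were called lower in Nint_END tumours, and Col4a1, Col4a2, Col18a1, Col5a3 and Col6a2 in B20_END tumours. Each of these genes also had a negative difference from T0 in the other treated group, though not called there. No collagen gene was called between Nint_END and B20_END or between either treated group and Veh_END. In Nint_END tumours 4 of the 36 genes were called higher and 3 lower (6.81% and 4.61% of all genes tested). In B20_END tumours 3 were called higher and 5 lower (5.77% and 3.73% of all genes). In Veh_END tumours 4 were called higher and 0 lower (2.8% and 2.12% of all genes). At an unadjusted p under 0.05, 8 collagen genes were higher and 6 lower in Nint_END (16% and 12.2% of all genes), 6 and 11 in B20_END (15.9% and 10.1%), and 6 and 5 in Veh_END tumours (12.3% and 9%). All tumours of the later group lay above all T0 tumours for 6 collagen genes and below them for 3 in Nint_END (9.37% and 7.45% of all genes), for 5 and 9 in B20_END (9.28% and 6.19%), and for 6 and 1 in Veh_END (9.7% and 6.95%). By sign alone, 19 were higher and 17 lower in Nint_END (51% and 49% of all genes), 16 and 20 in B20_END (56.4% and 43.6%), and 19 and 17 in Veh_END tumours (54% and 46%). The counts are small, no test of the list as a whole was made, and the 3 comparisons share the T0 arrays. The median difference of the 36 genes was 0.06 for Nint_END, -0.33 for B20_END and 0.04 for Veh_END tumours, beside medians over all genes of 0.013, 0.077 and 0.042. Without T0 replicate 4, which bears 2 labels, 7, 10 and 4 collagen genes were called in the same order of groups. Without T0 replicate 3, the array with the most probes above background, 6, 7 and 3 were called. Over all 28074 genes, 3761, 3299 and 2093 were called without replicate 4, and 3914, 3162 and 1956 without replicate 3. With all arrays these counts were 3208, 2666 and 1380.

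**Figure D1:**
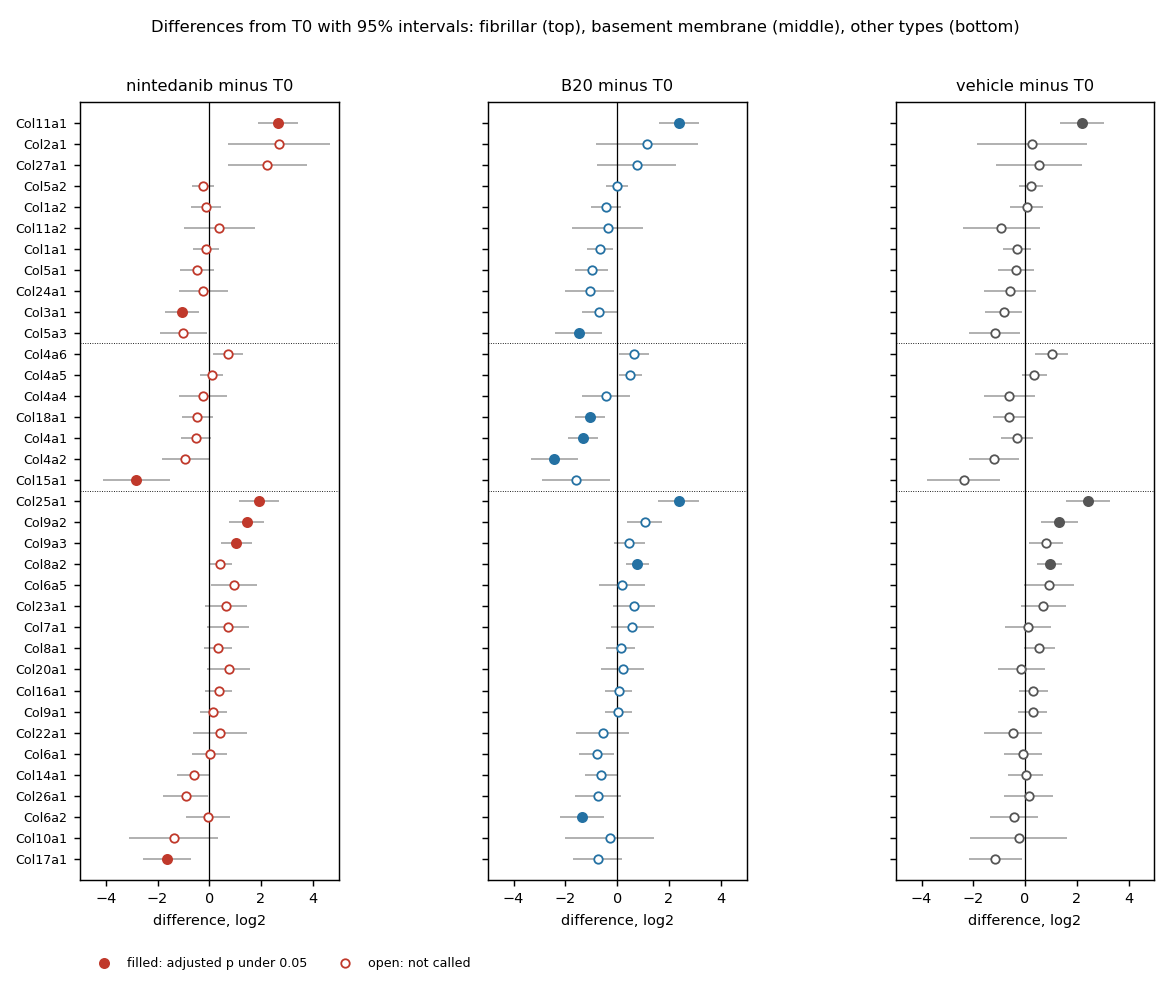
Difference in log2 level from T0 for the 36 tested collagen genes in Nint_END, B20_END and Veh_END tumours, with 95% intervals of the limma fit; dotted lines part fibrillar, basement membrane and other types. Col11a1 and Col25a1 are the filled points that lie to the right in all 3 panels, while Col4a1, Col4a2 and Col18a1 are filled on the left in the B20 panel and Col15a1 in the nintedanib panel.

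Between the groups at the end of treatment, no collagen gene passed the test. With limma, 0 of the 36 genes were called in Nint_END against Veh_END, in B20_END against Veh_END or in Nint_END against B20_END (0% of all genes in each direction of each). At an unadjusted p under 0.05, Nint_END against Veh_END had 3 collagen genes higher and 3 lower (2.38% and 2.44% of all genes), B20_END against Veh_END 0 higher and 3 lower (1.79% and 1.45%), and Nint_END against B20_END 5 higher and 0 lower (3.89% and 5.47%). The groups did not overlap for 2 collagen genes higher and 1 lower in Nint_END against Veh_END (3.21% and 4.14% of all genes), 0 and 0 in B20_END against Veh_END (2.81% and 2.59%), and 2 and 0 in Nint_END against B20_END (2.12% and 3.62%). By sign, 19 were higher and 17 lower in Nint_END against Veh_END (48.8% and 51.2% of all genes), 11 and 25 in B20_END against Veh_END (55.2% and 44.8%), and 26 and 10 in Nint_END against B20_END (44.7% and 55.3%). None was called under any of the alternative settings of normalisation, background, filter or block either. These 3 comparisons share arrays pairwise, and 3 or 4 arrays a group limit their precision.

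Among the fibrillar collagens, Col11a1, whose chain takes part in starting thin fibrils and is best known from cartilage, was called in all 3 comparisons with T0. Col11a1 levels were 3.06, 2.17, 1.84 and 1.34 in Nint_END, 1.32, 1.60, 1.75 and 2.70 in B20_END, 1.74, 1.14 and 2.09 in Veh_END, and -0.80, -0.50, -0.28 and -0.62 in T0 tumours. Every later tumour lay above every T0 tumour, the lowest later value being 1.14 in Veh_END replicate 2 and the highest T0 value -0.28. Col11a1 rose by 2.65 ± 0.36 in Nint_END (6.29-fold, adjusted p = 0.00266), 2.40 ± 0.36 in B20_END (5.26-fold, adjusted p = 0.00528) and 2.21 ± 0.39 in Veh_END tumours (4.62-fold, adjusted p = 0.00984), each relative to T0. The call held with any 1 array left out in all 3 comparisons, and was lost for Veh_END when that comparison was fitted on its own 7 arrays alone (adjusted p = 0.0524). Between Nint_END and Veh_END tumours Col11a1 differed by 0.44 ± 0.39 (95% interval -0.40 to 1.29, adjusted p = 0.999).

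Of the chains of the main stromal fibres, types I and III, Col3a1 was called lower in 1 comparison and the type I chains in none. Col1a1, the more abundant chain of type I collagen, had levels of 4.50, 5.05, 4.44 and 5.34 in Nint_END, 4.13, 4.17, 4.38 and 4.51 in B20_END, 5.01, 4.09 and 4.84 in Veh_END, and 5.01, 4.89, 5.09 and 4.81 in T0 tumours. B20_END tumours all lay below every T0 tumour, while the other groups overlapped with T0. The difference was -0.65 ± 0.23 for B20_END against T0 (adjusted p = 0.0965), which did not pass the test, and -0.12 ± 0.23 for Nint_END and -0.30 ± 0.25 for Veh_END against T0. Col1a2, the other type I chain, had levels of 5.68, 6.17, 5.97 and 6.58 in Nint_END, 5.72, 5.54, 6.15 and 5.82 in B20_END, 6.46, 5.64 and 6.76 in Veh_END, and 6.46, 6.50, 6.17 and 5.78 in T0 tumours. All 4 groups overlapped for Col1a2, and no difference passed the test (lowest adjusted p against T0 0.346).
Col3a1, the chain of reticular fibres, had levels of 5.53, 5.72, 6.24 and 6.21 in Nint_END, 6.42, 5.95, 6.51 and 6.32 in B20_END, 5.64, 5.81 and 7.02 in Veh_END, and 7.39, 7.31, 6.69 and 6.54 in T0 tumours. All Nint_END and all B20_END tumours lay below the lowest T0 tumour, and Veh_END replicate 3 lay inside the T0 range. Col3a1 fell by 1.06 ± 0.31 in Nint_END tumours relative to T0 (adjusted p = 0.0426), and the call was lost in 9 of the 15 fits that left out 1 array. It was also lost with quantile normalisation (adjusted p = 0.0897) and with the authors' deposited values (0.0666). The same held with no filter on dim probes, with slide or replicate number as a block and with the 2 groups alone. The difference from T0 was -0.68 ± 0.31 in B20_END and -0.83 ± 0.33 in Veh_END tumours (adjusted p = 0.177 and 0.17).

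Type V collagen is built into type I fibrils and limits their width. Col5a1 levels were 0.37, 1.18, 0.70 and 1.32 in Nint_END, 0.34, 0.054, 0.75 and 0.34 in B20_END, 1.20, 0.31 and 1.54 in Veh_END, and 1.66, 1.70, 1.28 and 0.78 in T0 tumours. B20_END tumours lay below every T0 tumour, at a difference of -0.99 ± 0.30 (adjusted p = 0.0561), outside the threshold. Col5a3, a chain of the same type, fell by 1.49 ± 0.43 in B20_END tumours relative to T0 (adjusted p = 0.0452); its levels were -0.14, 0.70, 0.38 and 1.21 in Nint_END, 0.30, -0.58, 0.50 and -0.058 in B20_END, 0.46, -0.56 and 1.17 in Veh_END, and 1.88, 2.32, 1.23 and 0.71 in T0 tumours. Its B20_END values lay below all T0 values, and the call was lost in 9 of the 15 fits that left out 1 array. The Col5a3 call was also lost with no filter on dim probes, slide or replicate number as a block and the 2 groups alone. Col5a2 had levels of -0.62, -0.17, 0.22 and -0.43 in Nint_END, -0.19, 0.039, 0.13 and -0.12 in B20_END, -0.034, 0.079 and 0.63 in Veh_END, and -0.14, 0.16, 0.034 and -0.14 in T0 tumours. All 4 groups overlapped for Col5a2, and Nint_END differed from Veh_END by -0.47 ± 0.21 at an unadjusted p of 0.0452 (adjusted p = 0.999). Col24a1 was well above background on 3 of the 15 arrays only, and no difference of it passed the test.
Fibroblast markers were lower by their medians in the same tumours. Of 12 markers, 0 were called lower in Nint_END, 3 in B20_END and 0 in Veh_END tumours against T0 (4.61%, 3.73% and 2.12% of all genes). Their median differences were -0.82, -0.85 and -0.62. Their summed level, log2 of the summed signals, ranged over 5.62 to 6.53 in Nint_END, 5.75 to 6.55 in B20_END, 5.95 to 6.92 in Veh_END and 6.56 to 7.68 in T0 tumours. The part of fibroblast content in the collagen differences was not tested.

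In B20_END tumours 3 of the 7 tested basement membrane collagen genes were called lower than in T0 and 0 higher (3.73% and 5.77% of all genes). Against T0, 1 of 7 was called lower in Nint_END (4.61% of all genes) and 0 in Veh_END tumours (2.12%), with 0 called higher in either (6.81% and 2.8%). Col4a1 and Col4a2 code for the chains of the type IV network found in nearly every basement membrane. Col4a1 levels were 1.10, 2.11, 1.49 and 1.76 in Nint_END, 0.35, 1.30, 0.84 and 0.74 in B20_END, 2.26, 1.29 and 1.91 in Veh_END, and 2.26, 2.36, 1.99 and 1.93 in T0 tumours. All B20_END tumours lay below all T0 tumours, and Veh_END replicate 2 lay just under the highest B20_END tumour. Col4a1 fell by 1.33 ± 0.27 in B20_END tumours relative to T0 (2.52-fold lower, adjusted p = 0.0121), and the difference was -0.52 ± 0.27 in Nint_END and -0.32 ± 0.29 in Veh_END tumours (adjusted p = 0.218 and 0.586).
Col4a2 had levels of 0.56, 1.75, 0.18 and 1.55 in Nint_END, -0.94, 0.10, -0.27 and -0.87 in B20_END, 1.73, -0.0012 and 0.48 in Veh_END, and 2.18, 2.24, 1.85 and 1.48 in T0 tumours. Every B20_END tumour lay below every Nint_END and every T0 tumour. Col4a2 fell by 2.43 ± 0.42 in B20_END tumours relative to T0 (5.4-fold lower, adjusted p = 0.00762). The differences from T0 of Nint_END (-0.93 ± 0.42, adjusted p = 0.166) and Veh_END tumours (-1.20 ± 0.45, adjusted p = 0.142) did not pass. Both type IV calls in B20_END tumours held with any 1 array left out and under every alternative setting.

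At the end of treatment, these 2 chains had the lowest unadjusted p-values among the collagens for B20_END against Veh_END, without passing the test. B20_END against Veh_END tumours differed by -1.01 ± 0.29 for Col4a1 (95% interval -1.63 to -0.40, unadjusted p = 0.00353) and -1.23 ± 0.45 for Col4a2 (-2.20 to -0.26, unadjusted p = 0.0171), and both had an adjusted p of 0.999. Within the slide that holds 8 of the arrays the differences were -0.95 and -1.23, and within the slide that holds 1 array of each group -1.17 and -1.35. Nint_END against B20_END tumours differed by 0.81 ± 0.27 for Col4a1 (0.24 to 1.38) and 1.51 ± 0.42 for Col4a2 (0.60 to 2.41), with adjusted p-values of 0.518 and 0.518. B20_END was the lowest group on average for both genes.

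**Figure D2:**
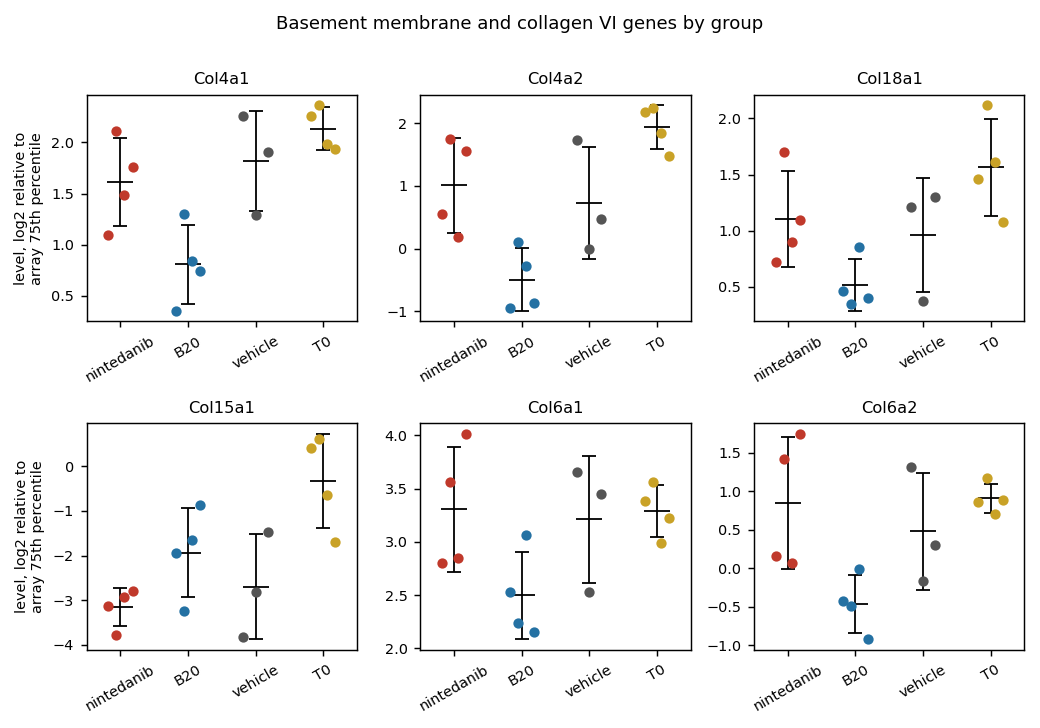
Levels (log2 relative to the array's 75th percentile) of Col4a1, Col4a2, Col18a1, Col15a1, Col6a1 and Col6a2 on each array of the nintedanib, B20, vehicle and T0 groups, with group mean and SD in black. Vertical axes differ between panels and do not start at 0; the B20 arrays are the lowest group for Col4a1, Col4a2, Col18a1, Col6a1 and Col6a2, and the nintedanib arrays for Col15a1.

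Col18a1, whose product carries the antiangiogenic fragment endostatin at its end, had levels of 0.72, 1.70, 0.90 and 1.09 in Nint_END, 0.46, 0.34, 0.86 and 0.40 in B20_END, 1.21, 0.38 and 1.30 in Veh_END, and 1.46, 2.12, 1.61 and 1.08 in T0 tumours. It fell by 1.05 ± 0.28 in B20_END tumours relative to T0 (adjusted p = 0.0332), with all 4 B20_END values below all 4 T0 values, and the call was lost in 5 of the 15 fits that left out 1 array. It was also lost with no filter on dim probes (adjusted p = 0.051), the mean of its probes (0.0564) and the 2 groups alone (0.0567). Slide or replicate number as a block lost it too. The difference was -0.46 ± 0.28 in Nint_END and -0.60 ± 0.30 in Veh_END tumours (adjusted p = 0.3 and 0.271).
Col15a1, its closest relative, is found at the outer face of basement membranes of vessels, muscle and fat. Its levels were -3.13, -3.77, -2.92 and -2.79 in Nint_END, -1.95, -3.25, -1.65 and -0.88 in B20_END, -3.82, -2.81 and -1.48 in Veh_END, and 0.40, 0.60, -0.64 and -1.69 in T0 tumours. Here Nint_END was the lowest group and all its values lay below all T0 values, while B20_END and Veh_END overlapped with T0. Col15a1 fell by 2.82 ± 0.61 in Nint_END tumours relative to T0 (7.05-fold lower, adjusted p = 0.0125), a call kept with any 1 array left out. The differences of -2.37 ± 0.66 in Veh_END (adjusted p = 0.0549) and -1.60 ± 0.61 in B20_END tumours (adjusted p = 0.113) did not pass. Over its 3 probes the difference of Nint_END from T0 ranged over -2.82 to -1.10, and the fold is that of the brightest probe, which was the lowest of the 3. The probes disagreed in sign for Nint_END against Veh_END (-0.45 to 0.38) and against B20_END (-1.22 to 0.33).

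Of the remaining type IV chains, none was called in any comparison. Col4a5 and Col4a6, which pair in the basement membranes of smooth muscle and some epithelia, had positive differences from T0 in all 3 later groups. Col4a6 levels were 3.07, 3.01, 2.22 and 2.19 in Nint_END, 2.57, 2.15, 2.72 and 2.79 in B20_END, 3.24, 2.30 and 3.22 in Veh_END, and 1.61, 2.07, 2.01 and 1.90 in T0 tumours. All later tumours lay above all T0 tumours, yet none of the differences, 0.73 ± 0.27 in Nint_END, 0.66 ± 0.27 in B20_END and 1.03 ± 0.29 in Veh_END tumours, passed the test (adjusted p = 0.0944, 0.134 and 0.0585). Col4a5 differed from T0 by 0.10 ± 0.21, 0.50 ± 0.21 and 0.36 ± 0.23 in the same order, and Col4a4 by -0.25 ± 0.43, -0.43 ± 0.43 and -0.61 ± 0.46, none of them called. The other probe of Col4a4 gave -1.73 in Nint_END, -1.35 in B20_END and -1.83 in Veh_END tumours.
Endothelial markers were called lower in each later group. Against T0, 7 of 14 were called lower in Nint_END, 11 in B20_END and 4 in Veh_END tumours (4.61%, 3.73% and 2.12% of all genes). Their median differences were -1.11, -1.62 and -1.20. Their summed level ranged over 4.85 to 5.32 in Nint_END, 5.09 to 5.33 in B20_END, 5.10 to 5.60 in Veh_END and 5.41 to 6.75 in T0 tumours. Of 11 pericyte and smooth muscle markers, 2, 4 and 1 were called lower in the same order. The part of vessel content in the collagen differences was not tested.

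Type VI collagen forms beaded microfilaments next to cells. Col6a1 had levels of 2.80, 3.56, 2.85 and 4.01 in Nint_END, 2.53, 2.24, 3.07 and 2.15 in B20_END, 3.65, 2.53 and 3.45 in Veh_END, and 3.38, 3.57, 2.99 and 3.23 in T0 tumours. The B20_END values were the lowest as a group but overlapped with every other group, and the difference from T0 was -0.79 ± 0.32 (adjusted p = 0.132). Col6a2, its partner, had levels of 0.15, 1.42, 0.071 and 1.74 in Nint_END, -0.43, -0.49, -0.013 and -0.93 in B20_END, 1.31, -0.17 and 0.30 in Veh_END, and 0.86, 1.17, 0.71 and 0.88 in T0 tumours. All B20_END tumours lay below all Nint_END and all T0 tumours. Col6a2 fell by 1.37 ± 0.39 in B20_END tumours relative to T0 (adjusted p = 0.0455), a call lost in 9 of the 15 fits that left out 1 array, and differed by -0.06 ± 0.39 in Nint_END and -0.43 ± 0.43 in Veh_END tumours. The call was also lost with normexp correction (adjusted p = 0.0645) and the authors' deposited values (0.052). The same held with no filter on dim probes and with slide or replicate number as a block.
Against Veh_END, B20_END tumours differed by -0.94 ± 0.43 for Col6a2 (unadjusted p = 0.0445, adjusted p = 0.999) and -0.71 ± 0.34 for Col6a1. Nint_END against B20_END tumours differed by 1.31 ± 0.39 for Col6a2 and 0.81 ± 0.32 for Col6a1 (adjusted p = 0.518 and 0.524). Within the slide of 8 arrays the Col6a2 difference between Nint_END and B20_END was 0.86, and within the slide of 3 arrays it was 2.67. Col6a5 was well above background on 3 arrays only and had no called difference.

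The genes called higher than in T0 outside the fibrillar class were a transmembrane, a network and fibril-associated types. Col25a1 codes for a transmembrane collagen best known from neurons, whose shed part binds amyloid. Col25a1 levels were -0.023, -0.38, -0.37 and -0.80 in Nint_END, 0.043, 0.01, 0.27 and -0.045 in B20_END, 0.71, -0.54 and 0.16 in Veh_END, and -3.09, -1.56, -1.59 and -3.01 in T0 tumours. Every later tumour lay above every T0 tumour. Col25a1 rose by 1.92 ± 0.37 in Nint_END (3.79-fold, adjusted p = 0.00796), 2.38 ± 0.37 in B20_END (5.22-fold, adjusted p = 0.00528) and 2.42 ± 0.40 in Veh_END tumours (5.37-fold, adjusted p = 0.00737). All 3 calls held with any 1 array left out, and the Veh_END call was lost in a fit to its own 7 arrays (adjusted p = 0.104). Its 3 probes gave 0.60 to 2.08 in Nint_END, 0.57 to 2.73 in B20_END and 0.79 to 3.01 in Veh_END tumours, so the size of the rise depends on the probe. With normexp background correction the same differences were 1.26, 1.68 and 1.71.

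Type IX collagen sits on the surface of type II fibrils, and its 3 chains come from separate genes. Col9a2 levels were 4.99, 4.77, 3.84 and 4.11 in Nint_END, 3.29, 3.88, 4.32 and 4.64 in B20_END, 4.38, 4.13 and 4.40 in Veh_END, and 2.85, 3.52, 2.85 and 2.68 in T0 tumours. It rose by 1.45 ± 0.31 in Nint_END (adjusted p = 0.0127) and 1.33 ± 0.34 in Veh_END tumours (adjusted p = 0.0411) relative to T0, and B20_END, with 1 value inside the T0 range, missed the threshold at 1.06 ± 0.31 (adjusted p = 0.0501). The Nint_END call held with any 1 array left out, and the Veh_END call was lost in 9 of the 15 fits that left out 1 array. The Veh_END call was also lost with quantile normalisation (adjusted p = 0.0583) and no filter on dim probes (0.0627). Slide or replicate number as a block and the 2 groups alone lost it too. Col9a3 levels were -0.77, -0.54, -1.22 and -0.52 in Nint_END, -1.59, -1.06, -1.31 and -1.43 in B20_END, -0.28, -1.16 and -1.57 in Veh_END, and -2.10, -1.31, -2.10 and -1.74 in T0 tumours. Nint_END tumours all lay above all T0 tumours and Col9a3 rose by 1.05 ± 0.28 there (adjusted p = 0.0281), beside 0.47 ± 0.28 in B20_END and 0.81 ± 0.30 in Veh_END tumours, which were not called. The Col9a3 call was lost in 5 of the 15 fits that left out 1 array, with normexp correction (adjusted p = 0.052), the authors' deposited values (0.0503), the slide as a block (0.0625) and the arrays of the 2 groups alone (0.0504). Col9a1, the third chain, differed from T0 by 0.16 ± 0.24, 0.042 ± 0.24 and 0.30 ± 0.26 in Nint_END, B20_END and Veh_END tumours, none of them called. Its other probe gave 1.33, 0.95 and 0.41 in the same order.
Col8a2, a short-chain network collagen known from the membrane under the corneal endothelium, had levels of -0.34, -0.054, -0.68 and -0.31 in Nint_END, -0.24, 0.046, 0.35 and -0.13 in B20_END, -0.021, 0.13 and 0.41 in Veh_END, and -1.30, -0.75, -0.65 and -0.40 in T0 tumours. It rose by 0.78 ± 0.21 in B20_END (adjusted p = 0.0363) and 0.95 ± 0.23 in Veh_END tumours (adjusted p = 0.0329) relative to T0, both lost in 5 of the 15 fits that left out 1 array and when the mean of its probes was used (adjusted p = 0.169 and 0.123). Both were also lost with no filter on dim probes, the slide as a block and the 2 groups alone. All B20_END and all Veh_END values lay above all T0 values, and Nint_END overlapped with T0, at a difference of 0.43 ± 0.21 (adjusted p = 0.203). Nint_END tumours all lay below all Veh_END tumours for Col8a2, by -0.52 ± 0.23 with an adjusted p of 0.999. Col8a1, the partner chain, differed from T0 by 0.34 ± 0.25, 0.13 ± 0.25 and 0.56 ± 0.27 in Nint_END, B20_END and Veh_END tumours and was not called.

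**Figure D3:**
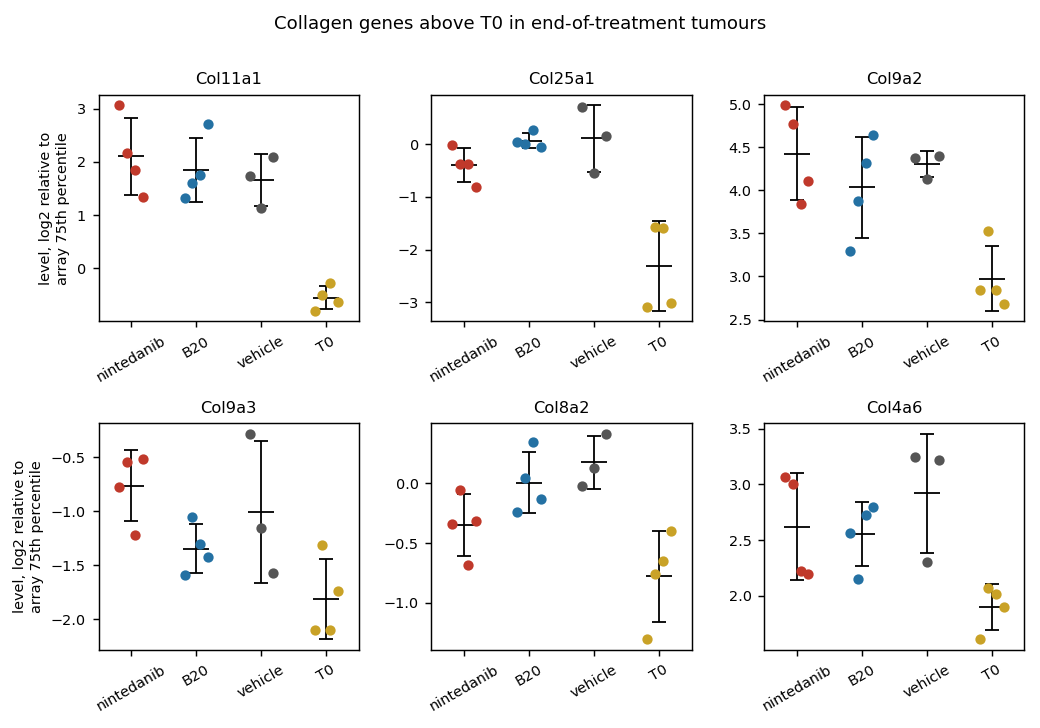
Levels (log2 relative to the array's 75th percentile) of Col11a1, Col25a1, Col9a2, Col9a3, Col8a2 and Col4a6 on each array of the nintedanib, B20, vehicle and T0 groups, with group mean and SD in black; axes differ between panels and do not start at 0. For Col11a1, Col25a1 and Col4a6 every later tumour lies above every T0 tumour.

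Col17a1, the transmembrane collagen of hemidesmosomes, by which basal epithelial cells hold on to the basement membrane was called lower in 1 comparison. Its levels were -2.62, -2.52, -3.34 and -1.92 in Nint_END, -2.29, -2.39, -0.44 and -1.79 in B20_END, -2.63, -1.98 and -1.74 in Veh_END, and -0.57, -0.37, -1.49 and -1.45 in T0 tumours. All Nint_END and all Veh_END tumours lay below all T0 tumours, whereas B20_END replicate 3 was among the T0 values. Col17a1 fell by 1.63 ± 0.44 in Nint_END tumours relative to T0 (adjusted p = 0.0307), a call lost in 5 of the 15 fits that left out 1 array, and differed by -1.15 ± 0.47 in Veh_END and -0.76 ± 0.44 in B20_END tumours (adjusted p = 0.18 and 0.297). The call was also lost with slide or replicate number as a block (adjusted p = 0.0633 and 0.0619). Of 7 basal epithelium markers, Nint_END had 0 called higher and 1 lower than T0, B20_END 2 and 1, and Veh_END 1 and 0. Over all genes the shares were 6.81% and 4.61%, 5.77% and 3.73%, and 2.8% and 2.12%. Col26a1 had levels of -3.59, -2.57, -3.44 and -2.18 in Nint_END, -3.04, -3.05, -2.26 and -2.74 in B20_END, -1.21, -1.90 and -2.54 in Veh_END, and -1.89, -2.05, -2.93 and -1.25 in T0 tumours, with an unadjusted p of 0.0299 for Nint_END against Veh_END at -1.06 ± 0.44 (adjusted p = 0.978). The sign turned within the slide of 3 arrays, where the Col26a1 difference was 0.36, against -1.65 within the slide of 8.
The other tested types, Col7a1, Col10a1, Col14a1, Col16a1, Col20a1, Col22a1 and Col23a1, had no called difference in any of the 6 comparisons. Among them Col7a1, the anchoring fibril collagen, ranged over 2.22 to 3.51 in Nint_END, 2.15 to 3.33 in B20_END, 1.99 to 2.54 in Veh_END and 1.62 to 3.12 in T0 tumours. Col22a1 was well above background on 3 Nint_END arrays, 0 B20_END, 0 Veh_END and 1 T0 array. It passed the filter through the Nint_END arrays, so no fold is given for it.

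The Nint_END tumours differed widely among themselves in 2 cartilage collagens, neither of which was called. Col2a1, the fibre-forming chain of cartilage, had levels of 2.25, 1.20, -2.93 and -1.0 in Nint_END, -3.06, -0.37, -1.04 and -2.16 in B20_END, -2.33, -2.79 and -2.58 in Veh_END, and -2.73, -1.78, -3.22 and -3.55 in T0 tumours. Nint_END replicates 1 and 2 lay above every other array, while replicate 3 was among the lowest and replicate 4 within the range of the B20_END group. The mean difference from Veh_END was 2.44 ± 0.99 (95% interval 0.32 to 4.57, unadjusted p = 0.0274, adjusted p = 0.978), and that from T0 was 2.70 ± 0.91 (adjusted p = 0.0717). Leaving out 1 array moved the difference from Veh_END between 1.65 and 3.38. Col27a1, a fibrillar collagen of developing cartilage, had levels of 1.83, -0.37, -1.97 and -2.19 in Nint_END, -2.99, -1.94, -2.10 and -1.64 in B20_END, -2.43, -2.54 and -2.15 in Veh_END, and -2.39, -2.29, -2.94 and -4.06 in T0 tumours. Its highest 2 values were again Nint_END replicates 1 and 2, and it differed from Veh_END by 1.70 ± 0.77 (adjusted p = 0.999). Within the slide of 8 arrays that difference was 2.32, and within the slide of 3 arrays -0.046. Col11a2, a partner of Col11a1 in cartilage, was highest in T0 replicate 3 at -1.12 and next in Nint_END replicate 1 at -1.93, and no difference of it passed.
Of 7 cartilage markers 4 were tested, and Matn1, Matn3 and Hapln1 did not reach 3 arrays well above background. Comp, a cartilage and tendon matrix protein, had levels of 1.40, 1.12, -0.29 and 1.01 in Nint_END, -1.34, -1.51, -0.49 and -0.97 in B20_END, -0.60, -1.74 and -0.52 in Veh_END, and -2.28, -1.64, -2.52 and -1.79 in T0 tumours. It was called higher in Nint_END than in T0 tumours, by 2.87 ± 0.39 (adjusted p = 0.00239), and differed from Veh_END by 1.76 ± 0.42 (adjusted p = 0.492). Cnmd, the cartilage protein chondromodulin, was called higher, by 2.71 ± 0.68 in Nint_END against T0 (adjusted p = 0.0228), and Acan, the main cartilage proteoglycan, was called lower in the same comparison, at -1.15 ± 0.29 (adjusted p = 0.0241), and in B20_END against T0, at -1.24 ± 0.29 (adjusted p = 0.0215). Their part in the Col2a1 and Col27a1 values was not tested.

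**Figure D4:**
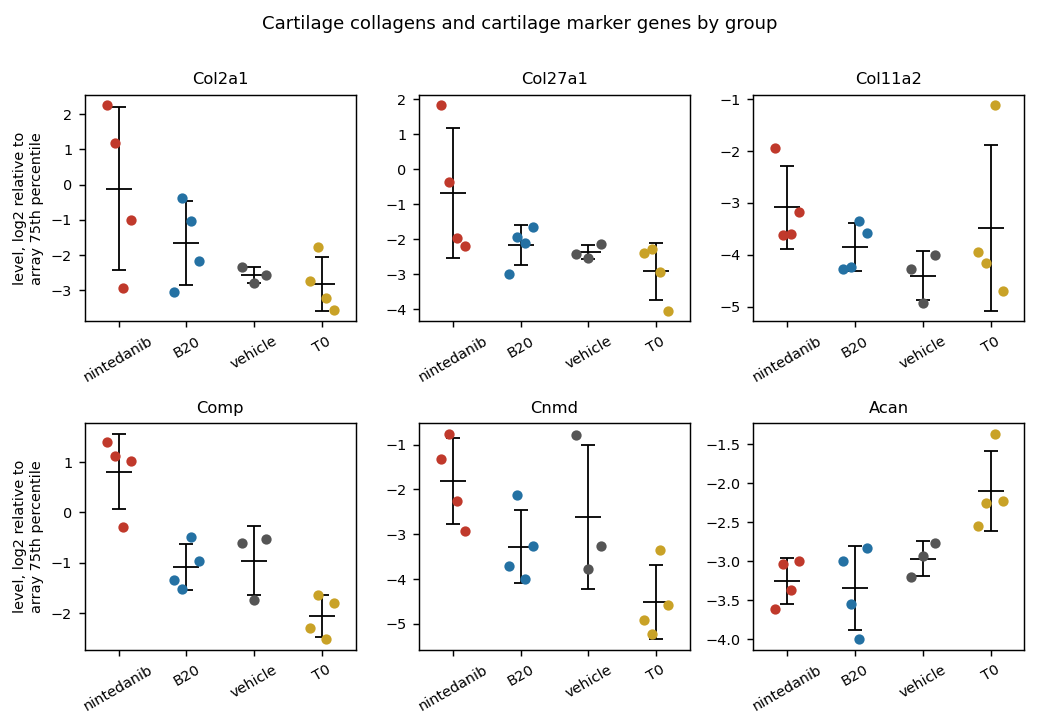
Levels (log2 relative to the array's 75th percentile) of the cartilage collagens Col2a1, Col27a1 and Col11a2 and of the cartilage markers Comp, Cnmd and Acan on each array of the nintedanib, B20, vehicle and T0 groups, with group mean and SD in black; axes differ between panels and do not start at 0. Nint_END replicates 1 and 2 stand at the top for Col2a1 (2.25 and 1.20) and Col27a1 (1.83 and -0.37).

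How closely partner chains varied together from array to array was examined in 12 pairs of chains of 1 collagen type, or of types that share chains, after each array's level had been set against its group mean. Col6a1 and Col6a2 had Pearson's r of 0.91 and Spearman's rho of 0.91 over 15 arrays (within-group permutation test, adjusted p over 12 pairs 0.00786 and 0.0078). Col4a1 and Col4a2, whose promoter windows overlap, had r of 0.87 and rho of 0.90 (adjusted p = 0.00786 and 0.00744). The part of that overlap was not tested. Col1a1 and Col1a2 had r of 0.79 and rho of 0.75 (adjusted p = 0.0272 and 0.048). Without the 2 arrays farthest from the median of the first gene, r was 0.87 for the type VI, 0.85 for the type IV and 0.72 for the type I pair. Within the slide of 8 arrays r was 0.94, 0.91 and 0.87 in the same order.
Col4a5 and Col4a6, the other type IV pair, reached r of 0.66 (adjusted p = 0.0676). Col11a1 and Col11a2 had r of 0.51 (adjusted p = 0.0326) and rho of 0.46 (adjusted p = 0.178). Col5a1 and Col5a2 had r of 0.35 and the type IX pairs r of 0.23 to 0.36, with adjusted p-values of 0.276 to 0.499 over these 4 pairs. Col8a1 and Col8a2 had r of -0.13 (adjusted p = 0.656). Col2a1 had r of 0.45 with Col11a1 and 0.21 with Col11a2 (adjusted p = 0.393 and 0.499). Within the slide of 8 arrays r was 0.92 for Col11a1 and Col11a2, 0.46 to 0.79 for the type IX pairs, 0.78 for Col11a1 and Col2a1, 0.57 for Col11a2 and Col2a1, 0.43 for Col4a5 and Col4a6, 0.23 for Col5a1 and Col5a2, and -0.12 for Col8a1 and Col8a2. All pairs share the arrays and their cell content, so the correlations measure common variation of any origin.

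**Figure D5:**
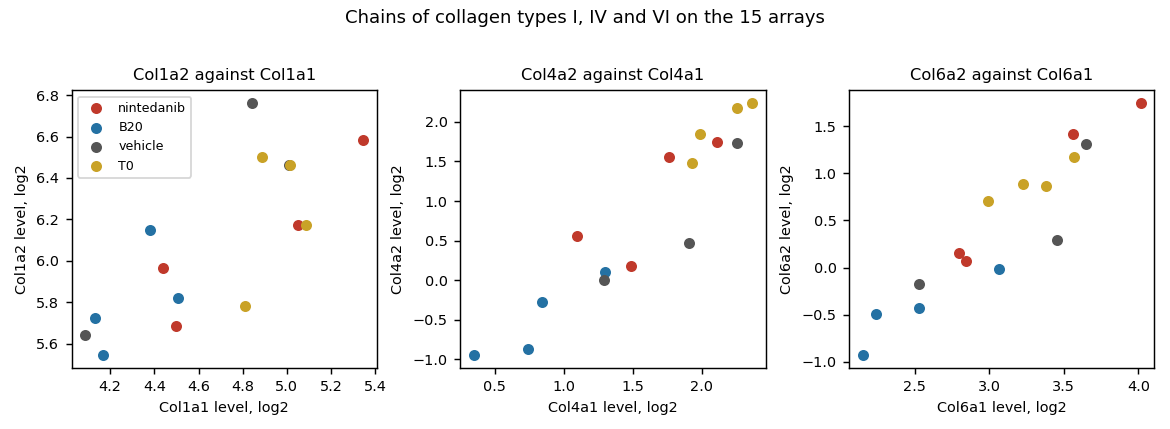
Level (log2 relative to the array's 75th percentile) of the second chain against the first for types I, IV and VI, 1 point per array, coloured by group: nintedanib, B20, vehicle and T0. In the type IV panel the 4 B20 arrays lie at the lower left, with Col4a1 at 0.35 to 1.30 and Col4a2 at -0.94 to 0.10.

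Genes that make, process and bind collagen changed in part against T0, and none passed the test between the groups at the end of treatment. Beside each list stand the shares of all genes called against T0 in Nint_END, B20_END and Veh_END tumours. These were 6.81%, 5.77% and 2.8% higher, and 4.61%, 3.73% and 2.12% lower. Of 19 genes for collagen hydroxylation and chaperones, Nint_END had 3 called higher, B20_END 2 and Veh_END 1, with 0 called lower in each. P3h4, a partner of the lysyl hydroxylases in the endoplasmic reticulum, rose by 0.79 ± 0.19, 0.91 ± 0.19 and 0.78 ± 0.20 (adjusted p = 0.0192, 0.0139 and 0.0466). P4hb, the disulfide isomerase subunit of prolyl 4-hydroxylase, rose by 0.80 ± 0.24 in Nint_END (adjusted p = 0.0499) and by 0.84 ± 0.24 in B20_END tumours (adjusted p = 0.046), and Crtap, a partner of prolyl 3-hydroxylase, by 0.58 ± 0.18 in Nint_END tumours (adjusted p = 0.0495).
Of 12 tested genes for procollagen processing and crosslinking, 1 was called higher and 1 lower in Nint_END, 0 and 3 in B20_END, and 0 and 0 in Veh_END tumours. Pcolce2, an enhancer of procollagen cleavage, fell by 2.0 ± 0.53 in Nint_END (adjusted p = 0.0305) and by 2.37 ± 0.53 in B20_END tumours (adjusted p = 0.0188). Loxl3, a lysyl oxidase-like enzyme, rose by 1.44 ± 0.38 in Nint_END tumours (adjusted p = 0.0293), while Loxl1 fell by 1.25 ± 0.33 in B20_END tumours (adjusted p = 0.0333).
Of 15 laminin, nidogen and proteoglycan genes of the basement membrane, 3 were called lower in Nint_END, 5 in B20_END and 1 in Veh_END tumours, with 0 called higher. Nid2, which links laminin to type IV collagen, fell by 1.55 ± 0.34 in Nint_END (adjusted p = 0.0134) and by 2.05 ± 0.34 in B20_END tumours (adjusted p = 0.00633). Nid1, of the same family, fell by 1.58 ± 0.35 in Nint_END (adjusted p = 0.0145) and by 1.82 ± 0.35 in B20_END tumours (adjusted p = 0.0111). Hspg2, the gene of perlecan, fell by 1.60 ± 0.36 in Nint_END (adjusted p = 0.0143) and by 1.37 ± 0.36 in B20_END tumours (adjusted p = 0.0307). Lamc3, a laminin gamma chain, fell by 1.89 ± 0.52 in B20_END (adjusted p = 0.0392) and by 2.43 ± 0.57 in Veh_END tumours (adjusted p = 0.0287). It was well above background on 10 of the 15 arrays, so the size of its fall is limited by its signal.
Of 11 fibril partners, 0 were called in Nint_END, 1 higher and 3 lower in B20_END, and 1 higher and 0 lower in Veh_END tumours. Sparc, a collagen-binding matrix protein, fell by 1.10 ± 0.26 and Ogn, a small leucine-rich proteoglycan, by 2.07 ± 0.53 in B20_END tumours (adjusted p = 0.0215 and 0.0289). Tnc, the matrix protein tenascin C, rose by 1.81 ± 0.49 in B20_END (adjusted p = 0.0354) and by 2.26 ± 0.53 in Veh_END tumours (adjusted p = 0.0292). Of 9 tested collagen receptors, Ddr2, a kinase that binds fibrillar collagen, fell by 1.58 ± 0.38 and Itga1, an integrin chain, by 1.19 ± 0.30 in B20_END tumours (adjusted p = 0.023 and 0.0282), and 0 were called in Nint_END or Veh_END tumours.
Markers of fat were lower in the later tumours, and those of muscle did not pass the test. All 10 adipocyte markers were lower in each later group, 9 of them called in Nint_END, 9 in B20_END and 10 in Veh_END tumours, with median differences of -3.57, -3.18 and -5.52. Their summed level ranged over 5.33 to 8.19 in Nint_END, 5.45 to 7.70 in B20_END, 3.49 to 6.0 in Veh_END and 8.78 to 10.64 in T0 tumours. The 12 skeletal muscle markers had median differences of -2.86, -1.66 and -3.82 in the same order, with 0 called, and their summed level overlapped between groups (3.90 to 7.86, 4.26 to 10.66 and 3.49 to 6.68, against 5.82 to 11.28 in T0). The part of either tissue in the collagen differences was not tested.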

How the data were processed

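Gene expression was measured in 15 dissected mouse mammary tumours on Agilent arrays of 1 colour (Cy3). Per the file headers, Feature Extraction 10.7.3.1 produced the deposited spot intensity, subtracted for background and detrended but not normalised between arrays, with flags for each spot; the array grid is on mm9. The authors also deposited a table of log2 values, whose columns correlated with normexp-corrected, quantile-normalised signals at r of at least 0.9995; centring and exact steps are not given in the sources used here, and it served as an alternative (column medians 6.616 to 6.6267).

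From the processed intensity, outlier spots were dropped, spots of a probe averaged, log2 taken and each array's 75th percentile over non-control probes subtracted; 82 probe-array values with no spot left were imputed, none of a collagen gene. Probes well above background on at least 3 arrays were kept, and a gene took its brightest probe. Of 55681 probes, 26056 matched 1 mouse symbol and 29625 were unnamed. No collagen probe was saturated. The number of arrays limits the precision. limma 3.58.1 in R 4.3.3 (lmFit, eBayes) fitted 4 group means to all arrays, with 6 contrasts and Benjamini-Hochberg adjustment over 28074 genes. The fit was tested on simulated data. Correlations of chains used 100000 permutations within groups.

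Groups came from sample titles. The collagen genes, partner lists and marker lists were chosen with earlier results of these data known. Named were 11 chosen collagens that include the main chains (Col12a1 among them, not analysed here), up to 4 with the lowest unadjusted p in a comparison, and up to 2 of each partner list. Col5a3, Col9a3, Col27a1, Col4a6, Col7a1, Col22a1 and Col11a2, partner chains, P4hb, Nid1, Lamc3 and the marker genes were named after their values were seen. Alternatives were normexp (offset 50, on median spot and background signals, since a mean spot signal was not used), quantile normalisation, other filters, the mean of probes, slide and replicate blocks, 2-group fits and leaving out each array; fits to the slide of 8 arrays were added after seeing the data. Promoters are RefSeq's on GRCm38.p6.

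Replicate numbers were not taken as pairing samples: the deviations of samples with the same number correlated at a median r of 0.0087 over 21 pairs. For samples with different numbers the median r was -0.0108 over 63 pairs. These values cannot exclude a weak pairing.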

Additional observations from a re-analysis of the deposited data

How the results depend on the processing

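Relative to T0, 7 collagen genes were called in Nint_END, 8 in B20_END and 4 in Veh_END tumours. With the slide as a random block the counts were 4, 4 and 2. Over all genes that block called 2021, 1536 and 872, in place of 3208, 2666 and 1380. The collagen calls lost there were Col3a1, Col9a3 and Col17a1 in Nint_END and Col5a3, Col6a2, Col8a2 and Col18a1 in B20_END tumours. In Veh_END tumours they were Col8a2 and Col9a2. With no filter on dim probes, Nint_END had 6, B20_END 4 and Veh_END 2 collagen genes called. Over all 37119 genes then tested, 2451, 1828 and 894 were called. Fitted on the arrays of the 2 groups compared, Nint_END had 5, B20_END 5 and Veh_END 0, and over all genes that setting called 1444, 973 and 17 in place of 3208, 2666 and 1380. Leaving out 1 array gave 4 to 7 in Nint_END, 4 to 10 in B20_END and 2 to 4 in Veh_END. Over all genes those fits called 1611 to 3914, 919 to 3299 and 479 to 2093 in the same order. With the replicate number as a block, 5, 5 and 3 collagen genes were called, and 2638, 2077 and 1224 over all genes. The labels do not say whether replicate numbers pair the samples. Among the 3 groups at the end of treatment, 0 collagen genes were called under every setting run, the slide of 8 arrays included. Over all genes the main fit called 0 in each of these comparisons, and no setting called more than 2. Those 2 were in Nint_END against Veh_END without T0 replicate 4. An unadjusted p under 0.05 is a looser threshold than a call. In the main fit 669 and 684 of all genes met it for Nint_END against Veh_END (higher and lower). For B20_END against Veh_END these counts were 503 and 407, and for Nint_END against B20_END 1092 and 1537. No called difference of a named collagen gene reversed. The cause of these changes was not tested. Genes near background, such as Col22a1, Col24a1 and Col6a5, are limited by their signal.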

Other observations

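Probes of 1 gene did not always give the same direction. Besides Col15a1, the probes of Col4a6 differed in sign for Nint_END and for B20_END against Veh_END, those of Col25a1 and Col8a2 for Nint_END against B20_END, and those of Col23a1 in all 3 comparisons with T0. Col4a4, Col9a1, Col14a1, Col16a1 and Col20a1 also had probes of opposite sign in at least 1 comparison. None of these differences was called. The probes of Col23a1 that were used gave differences from T0 of 0.66 in Nint_END, 0.66 in B20_END and 0.71 in Veh_END tumours, while its other probe gave -1.03, -0.90 and -0.95.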
